A study of Homo sapiens with 12 samples.

Results

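The collagen genes were taken as the entries of the count table whose symbol reads COL, a number, A and a number, such as COL5A2, with nothing after it. This rule found 44 of the 19225 entries, 11 for chains of fibrillar collagens, 6 for chains of type IV collagen, the network collagen of basement membranes, and 27 for the other types. COL4A3BP and COL4A2-AS2 begin in the same way but go on differently and were not counted. Of the 44 genes, 26 passed the filter on low counts for the comparison of FAT1 knockdown with control, namely 6 of the fibrillar, 6 of the basement membrane and 14 of the other genes, and 18 did not.

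Collagens are matrix proteins in which chains with glycine repeats wind around each other into a stiff helix, and each type is assembled from its own set of chains. Fibrillar collagens build the fibers of stroma and are made mostly by fibroblasts, while epithelial cells, squamous ones included, lay down the type IV network of the basement membrane on which they sit. Squamous epithelium also makes type VII collagen, which anchors the basement membrane to the stroma, and type XVII collagen, a transmembrane protein of hemidesmosomes.

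The cells were HN6 and HN30, human cell lines of oral squamous cell carcinoma (OSCC). Each line was transfected with a scrambled siRNA (NC) or with 1 of the siRNAs siFAT1-1 and siFAT1-2 against FAT1, which encodes a giant protocadherin, and poly(A) RNA was sequenced 24 h later. Each of the 6 conditions had 2 repeats, carried out at separate times, giving 4 NC and 8 knockdown (KD) libraries. No other treatment is named in the labels, and the NC cells received the same lipid reagent as the KD cells. Total counts per library ranged from 26430049 to 47639010, so that 3 counts corresponded to 0.0679 to 0.112 CPM (counts per 1000000, with TMM-scaled library sizes), and collagen genes took 0.195% to 0.56% of the counts.

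FAT1 was at 56.8 and 66.7 CPM in the HN6 NC libraries, 7.61 and 13.5 CPM with siFAT1-1 and 13.2 and 21.4 CPM with siFAT1-2. In HN30 it was at 13.6 and 14.7 CPM with NC, 4.86 and 6.26 CPM with siFAT1-1 and 10.8 and 7.74 CPM with siFAT1-2. All 8 KD libraries were below the NC libraries of the same line, and the log2 fold change over both lines was -1.59 (standard error 0.308, edgeR adjusted p = 0.0404). It was -1.94 with siFAT1-1 (standard error 0.308, edgeR adjusted p = 0.0149) and -1.17 with siFAT1-2 (standard error 0.302, edgeR adjusted p = 0.0904), a difference between the siRNAs of -0.75 (standard error 0.264, edgeR adjusted p = 0.0680). Within HN6 the log2 fold change was -2.11 (standard error 0.397, edgeR adjusted p = 0.814) and within HN30 -0.94 (standard error 0.351, edgeR adjusted p = 0.492). The difference of HN30 over HN6 was 1.22 (standard error 0.556, edgeR adjusted p = 0.9999).

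The keratinocyte markers KRT5, KRT17, CDH1, TP63 and SFN were detected in every library of both lines, whereas KRT14 had at most 2 counts in any HN30 library. VIM, a mesenchymal filament gene, ranged from 278 to 1548 CPM in HN6 and from 0.461 to 2.18 CPM in HN30. Among leukocyte markers PTPRC had at most 1 count in any library and CD3E at most 11, but ITGAM reached 96 counts, and CD68, a lysosomal protein of macrophages, ranged from 69.0 to 121 CPM in HN6 and from 16.1 to 31.3 CPM in HN30. Of the endothelial markers KDR had at most 2 counts, PECAM1 9, VWF 47 and TEK 72, while CDH5 reached 241 counts, or 6.53 CPM. In HN6, NC repeat 2 stood apart from NC repeat 1 and from the other libraries of the line in some matrix genes. It held 157 counts of COL1A2, 60 of COL6A3, and 16 each of COL3A1 and POSTN, against 0, 2, 0 and 0 counts in NC repeat 1. Over the 12 libraries COL1A2 was at 0 in 8 and had at most 2 counts in the 3 others. With all 12 libraries, none of these 3 collagens passed the filter for KD against NC, while COL6A3 passed it within HN30, and they enter some counts without the filter or with 1 library left out.

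COL6A1, one of the chains of the beaded filaments of type VI collagen, had the highest level per length, with a mean over the 12 libraries of 120 RPKM (CPM per kilobase of exon). It was followed by COL6A2 at 74.8, COL7A1 at 67.3, COL5A1 at 39.5, COL4A2 at 34.2, COL4A1 at 25.4, COL17A1 at 21.9 and COL16A1 at 11.5 RPKM. The order differed between the lines. In HN6 the means were 208 RPKM for COL6A1, 144 for COL6A2, 52.5 for COL7A1 and 47.7 for COL5A1, whereas in HN30 COL7A1 was highest at 82.1, before COL5A1 at 31.4, COL6A1 at 31.1 and COL4A2 at 26.5, and COL6A2 was at 5.35 RPKM. The place of COL5A1 in HN30 rested on siFAT1-1, where it averaged 62.6 RPKM, against 14.8 with NC and 16.9 with siFAT1-2. With NC it lay below COL6A1 at 33.4 and COL4A2 at 25.4 RPKM. Some chains that assemble together differed widely in level per length. COL1A1 averaged 6.35 RPKM while COL1A2, its usual partner in type I collagen, averaged 0.0355 RPKM, and COL6A3, the large chain of type VI collagen, averaged 0.0156 RPKM. COL5A1 averaged 39.5 RPKM, whereas COL5A2, its partner in the type V molecules that start collagen fibrils, averaged 0.540 RPKM and ranked 19th of 44. COL6A5 and COL9A1 were at 0 in every library, and 14 of the 18 genes that did not pass the filter had no more than 15 counts in any library.

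**Figure D1:**
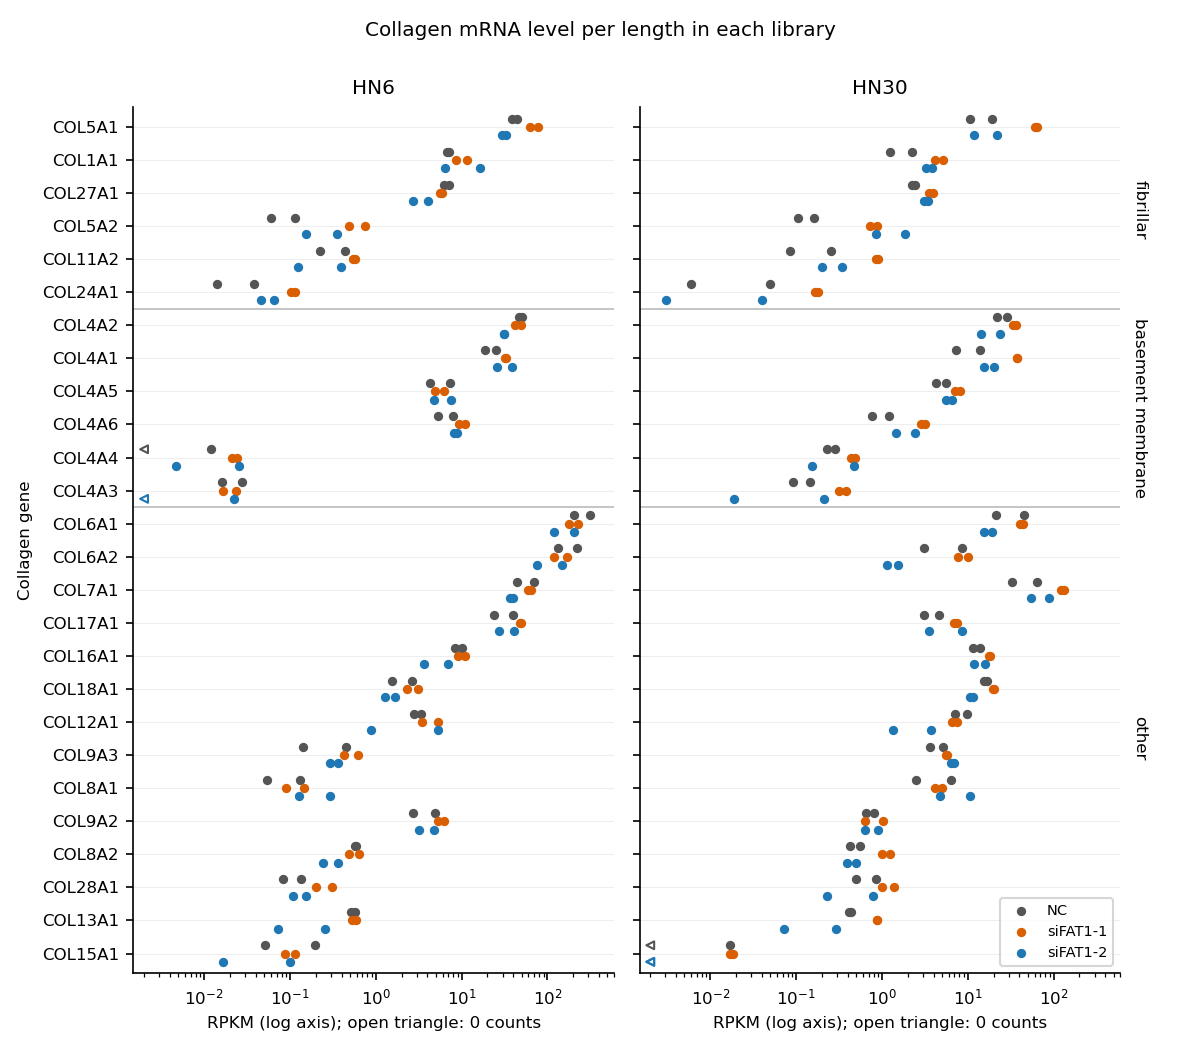
RPKM (log axis) of the 26 collagen genes that passed the filter, in HN6 (left) and HN30 (right), with 1 point per library colored by siRNA and an open triangle for a library with 0 counts. COL6A1 and COL6A2 reach over 74 RPKM in every HN6 library, while COL5A2 stays at or below 1.84 RPKM in all 12 libraries.

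HN6 had more COL6A1, COL6A2 and COL17A1 mRNA, and HN30 more COL8A1 and COL18A1. With siRNA group as a term, 13 of the 25 collagens tested differed between HN6 and HN30 (unadjusted P under 0.05 and absolute log2 fold change above 1, the rule for differentially expressed genes (DEGs) used throughout), beside 30.4% of the 13440 genes tested, and 17 of the 25 had an adjusted p under 0.05, beside 56.5% of all genes. COL6A2 had a median of 141 RPKM in HN6 (range 74.9 to 220, 6 libraries) and of 5.37 RPKM in HN30 (range 1.15 to 9.997), so that the lines did not overlap (log2 fold change 5.09, standard error 0.447, edgeR adjusted p = 1.96e-06). COL6A1 was also higher in HN6, with a log2 fold change of 2.82, as was COL17A1 with 2.77, COL4A6 with 2.21 and COL1A1 with 1.60. COL8A1, a short-chain collagen of vascular and other matrices, lay on the other side, with a median of 0.129 RPKM in HN6 (range 0.0545 to 0.291) and of 4.89 RPKM in HN30 (range 2.52 to 10.6). Its log2 fold change of HN6 against HN30 was -5.34 (standard error 0.376, edgeR adjusted p = 3.58e-07). COL4A4, a chain of the type IV network of the kidney and other specialized basement membranes, was lower in HN6 by the same test, with a log2 fold change of -4.58. Of the genes called only between the lines and not among the 8 most abundant, the largest log2 fold changes were -3.87 for COL9A3, -3.31 for COL4A3, -2.90 for COL18A1 and 2.52 for COL9A2. COL5A2 was higher in HN30 over all libraries, with a log2 fold change of -1.11 (standard error 0.413, edgeR adjusted p = 0.0358), but in the NC libraries alone the value was -0.61 (edgeR adjusted p = 0.547). That call was also lost when siFAT1-2 repeat 1 of HN30 (-0.81), siFAT1-2 repeat 1 of HN6 (-0.80) or siFAT1-2 repeat 2 of HN6 (-1.001, edgeR adjusted p = 0.0927) was left out. In bulk RNA a lower level can come from fewer cells that express a gene or from less RNA in each cell, and these cannot be told apart here.

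COL5A2 (ENSG00000204262) lies on the minus strand of chromosome 2 of GRCh38 from 189031898 to 189225312, tail to tail with COL3A1 and 19151 bases from it. It was at 0.444 and 0.845 CPM in the HN6 NC libraries, at 5.46 and 3.54 CPM with siFAT1-1 and at 1.14 and 2.62 CPM with siFAT1-2. The HN30 libraries had 0.764 and 1.18 CPM with NC, 5.27 and 6.44 CPM with siFAT1-1 and 13.5 and 6.20 CPM with siFAT1-2. Every KD library lay above both NC libraries of its line, although siFAT1-2 repeat 1 of HN6 exceeded NC repeat 2 only narrowly, and the NC levels rested on 13, 30, 27 and 47 counts. Over both lines KD against NC gave a log2 fold change of 2.65 (standard error 0.473, edgeR adjusted p = 0.0259). This rise was known when the collagens were selected. The adjusted p was 0.0756 with the repeat as a block, and over the single-library omissions it was 0.103 without HN6 NC repeat 1, 0.0579 without HN6 siFAT1-1 repeat 2, 0.156 without HN30 NC repeat 1, 0.0869 without HN30 NC repeat 2 and 0.0534 without HN30 siFAT1-1 repeat 2. Over all alternatives it ranged from 2.52e-07 with the DESeq2 Wald test to 0.223 without a term for cell line, and the log2 fold change from 2.45 to 2.94. COL3A1, its neighbor, had at most 4 counts in any KD library.

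COL5A2 was the 1 gene called among the 26 collagens tested in KD against NC, beside 3.07% of the 13887 genes tested, and also the 1 collagen with an adjusted p under 0.05, beside 0.547% of all genes. Its rise was known when the collagens were selected, so both counts follow from that choice. No other collagen met either threshold in this fit. The DESeq2 Wald test gave 4 of the 26 an adjusted p under 0.05, beside 640 of the 13887 genes. Besides COL5A2, 2 collagens, COL4A1 and COL4A6, had all 8 KD libraries above both NC libraries of their line, beside 2.29% of all genes, and no collagen had all 8 below, beside 3.15%. COL1A1, COL4A1, COL4A6 and COL17A1 also had an unadjusted P under 0.05, which makes 5 of 26 beside 14.5% of all genes, with log2 fold changes of 0.92, 0.96, 0.89 and 0.57, short of the fold the rule asks for. The median log2 fold change of the 26 collagens was 0.34, against 0.017 over all genes, and 18 of the 26 lay above 0, as 52.0% of all genes did. By class the medians were 0.95 for the 6 fibrillar, 0.60 for the 6 basement membrane and 0.05 for the 14 other collagens, and the fibrillar genes include COL5A2. The number called was 4 without HN6 NC repeat 2 or HN30 siFAT1-2 repeat 1, 3 without HN6 siFAT1-2 repeat 2 or HN30 NC repeat 2, and 2 without HN6 NC repeat 1, HN6 siFAT1-1 repeat 1, HN6 siFAT1-2 repeat 1 or HN30 siFAT1-2 repeat 2. Where it was 4, 485 of 14077 and 436 of 13821 genes were called in the same order. Where it was 3, these were 440 of 13812 and 602 of 14059. Where it was 2, they were 606 of 14063, 480 of 13808, 398 of 13821 and 491 of 13828. With all libraries 426 of 13887 genes were called.

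The siRNAs were also compared with NC one at a time. With siFAT1-1, 8 of 26 collagens rose, beside 3.53% of the 13573 genes tested that rose, and 0 fell, beside 2.35%. Of these 8, 4 were fibrillar (COL5A2, COL24A1, COL11A2 and COL5A1), 3 were type IV chains (COL4A1, COL4A4 and COL4A6) and the other was COL28A1. They include COL5A2, whose rise was known when the collagens were selected, and COL24A1, which passed the filter only through its siFAT1-1 libraries. Without HN30 NC repeat 1 the number was 4, beside 617 of 13762 genes called, against 798 of 13573 with all libraries. All 26 log2 fold changes lay above 0, with a median of 0.59, against 0.008 over all genes, of which 50.7% lay above 0. When single libraries were left out, 0 to 4 of the 26 or 27 collagens tested lay below 0, most often COL6A1, and without the filter on low counts 11 of 42 did. With siFAT1-2, 2 of 25 collagens rose (COL5A2 and COL8A1), beside 3.95% of the 13458 genes tested, and 2 fell (COL13A1 and COL6A2), beside 3.77%. The rise of COL5A2 was again known beforehand. Without HN30 NC repeat 1 or HN30 siFAT1-2 repeat 2, 2 collagens were called, beside 811 of 13660 and 1244 of 13697 genes. With all libraries 1040 of 13458 genes were called. The median log2 fold change of the 25 was 0.02, against 0.048 over all genes. Both comparisons used the same 4 NC libraries. An adjusted p under 0.05 was reached by COL5A2, COL5A1 and COL4A6 with siFAT1-1, 3 of 26 beside 4.49% of all genes, and by 1 collagen with the repeat as a block (COL5A2, edgeR adjusted p = 0.0372). This number fell from 3 to 0 without HN30 siFAT1-1 repeat 2, was 7 without HN6 NC repeat 2 and 4 without HN6 NC repeat 1, and was 1 when each of the 5 other libraries was left out. Over all genes it was 609 of 13573 with all libraries, and 27 of 13765, 1336 of 13774 and 1558 of 13855 in the omissions named. In the others it was 32 to 267. An adjusted p under 0.05 with siFAT1-2 was reached by 1 collagen without HN6 NC repeat 2, beside 222 of 13659 genes. With all libraries it was reached by 0 of 25, beside 0.453% of all genes. In the latter comparison edgeR gave 10 collagens an unadjusted P under 0.05, beside 21.4% of all genes, 5 in each direction, and the DESeq2 Wald test gave 3 an adjusted p under 0.05, beside 1613 of the 13458 genes. By the same test 9 of 26 collagens had an adjusted p under 0.05 with siFAT1-1, beside 1656 of the 13573 genes.

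**Figure D2:**
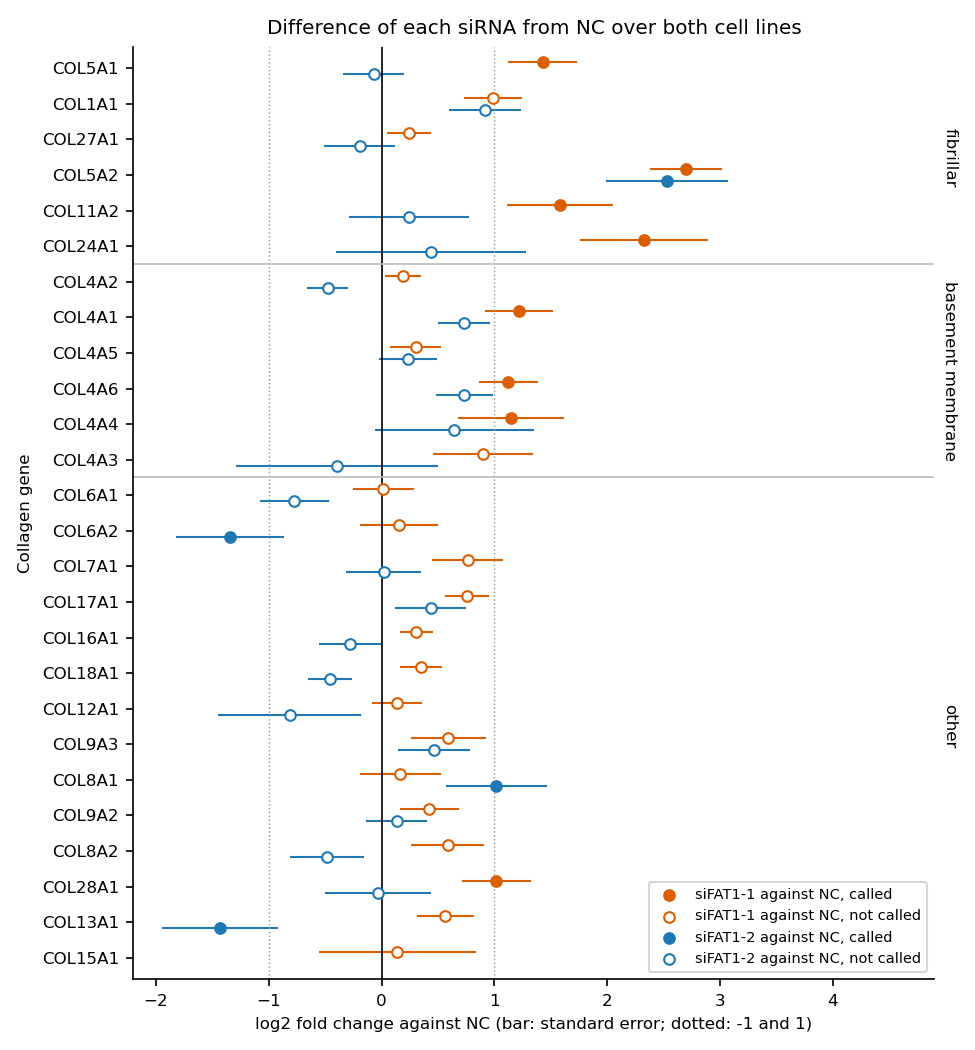
Log2 fold change of siFAT1-1 (orange) and siFAT1-2 (blue) against NC, fitted over both lines with edgeR, for the collagens that passed the filter, grouped by class; bars are standard errors and filled points passed the DEG rule. All siFAT1-1 points lie right of 0, while the siFAT1-2 points lie on both sides, and COL15A1 was not tested for siFAT1-2.

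The difference between the siRNAs was also tested directly. Against siFAT1-2, 7 of 24 collagens were higher with siFAT1-1, beside 6.83% of the 13533 genes tested, and 0 were lower, beside 5.85%. They were COL13A1, COL24A1, COL5A1, COL6A2, COL11A2, COL8A2 and COL28A1, of which COL8A2 was named after its values were seen. COL24A1 passed the filter here only through its siFAT1-1 libraries. An adjusted p under 0.05 was reached by 8 of 24, beside 22.7% of all genes, all higher with siFAT1-1. This number was 2 without HN30 siFAT1-1 repeat 2 and 3 without HN6 siFAT1-1 repeat 1 or HN30 siFAT1-1 repeat 1, and went up to 10 over the other omissions. Over all genes it was 3075 of 13533 with all libraries, and 1349 of 13742, 1467 of 13730 and 1305 of 13752 in the omissions named. In the others it was 2023 to 3335. The median log2 fold change of the 24 was 0.65, against -0.047 over all genes. The call of COL28A1 was lost without HN6 siFAT1-1 repeat 2 (0.99), HN30 siFAT1-1 repeat 1 (0.95) or HN30 siFAT1-2 repeat 1 (0.80), and that of COL8A2 without HN30 siFAT1-1 repeat 2 (0.97) or HN30 siFAT1-2 repeat 1 (0.98). The summed squamous markers also lay apart between siFAT1-1 and siFAT1-2 in each line. The summed level of the 8 squamous markers was 2249 and 3425 CPM in HN6 with NC, 5758 and 4731 CPM with siFAT1-1 and 1476 and 2330 CPM with siFAT1-2. In HN30 the sums were 1941 and 1745 CPM with NC, 2927 and 2797 CPM with siFAT1-1 and 867 and 1311 CPM with siFAT1-2. KRT5 was the most abundant of the 8 in 9 of the 12 libraries, SFN in 1 and CDH1 in 2, and KRT14 was the only one at 0 in any library. DSG3, a desmosomal cadherin, ran against the sum, at 39.2 and 54.9 CPM with siFAT1-1 and 73.6 and 98.0 CPM with siFAT1-2 in HN6, and at 25.7 and 21.4 CPM against 60.3 and 36.3 CPM in HN30. TP63 did so in HN30, at 125 and 105 CPM against 235 and 275 CPM, and overlapped between the siRNAs in HN6. The summed endothelial markers, with CDH5 the most abundant in 6 libraries, VWF in 5 and TEK in 1, were at 1.91 and 6.40 CPM in HN6 with NC, at 8.26 and 8.98 CPM with siFAT1-1 and at 0.969 and 2.50 CPM with siFAT1-2. In HN30 they were at 0.651 and 0.832 CPM, 3.52 and 2.96 CPM, and 0.202 and 0.524 CPM, so that the siFAT1-1 libraries were again highest in both lines. The part of these markers in the collagen results was not tested.

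COL5A1, the major chain of type V collagen, showed the smallest P of the collagens between the siRNAs. It was at 499 and 434 CPM in HN6 with NC, at 863 and 703 CPM with siFAT1-1 and at 367 and 326 CPM with siFAT1-2. The HN30 values were 118 and 212 CPM with NC, 683 and 714 CPM with siFAT1-1 and 131 and 245 CPM with siFAT1-2. The siFAT1-1 libraries lay above all others of their line, and the siFAT1-2 libraries of HN30 overlapped those of NC. The log2 fold change was 1.43 for siFAT1-1 against NC (standard error 0.303, edgeR adjusted p = 0.0378), -0.07 for siFAT1-2 against NC (standard error 0.268) and 1.51 between the siRNAs (standard error 0.232, edgeR adjusted p = 0.00468). Leaving out single libraries kept the unadjusted calls of siFAT1-1 in all 8 fits, while its adjusted p ranged from 0.0202 to 0.135. For COL5A2 the log2 fold changes against NC were 2.69 (standard error 0.320) and 2.53 (standard error 0.539), and the difference between the siRNAs was 0.21 (standard error 0.496, edgeR adjusted p = 0.788). That difference had no stable direction, at -0.20 without HN6 siFAT1-2 repeat 1 and 0.68 without HN30 siFAT1-2 repeat 1.

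COL24A1 and COL11A2, minor fibrillar chains, were the lowest per length of the 6 fibrillar genes that passed the filter. COL24A1 was at 0.137 and 0.366 CPM in HN6 with NC, at 0.996 and 1.08 CPM with siFAT1-1 and at 0.443 and 0.632 CPM with siFAT1-2. In HN30 its levels were 0.0566 and 0.479 CPM, 1.61 and 1.73 CPM, and 0.0288 and 0.378 CPM in the same order, with the siFAT1-1 libraries highest in both lines. HN30 NC repeat 1 held 2 counts of it and HN30 siFAT1-2 repeat 1 held 1, under the floor of 3 counts, so that its fold changes are imprecise. COL24A1 passed the filter for siFAT1-1 against NC only through the siFAT1-1 libraries, since NC libraries at 0.137 and 0.0566 CPM fell below it. Between the siRNAs it also passed only through them, so its calls partly reflect the filter. It rose with siFAT1-1 by a log2 fold change of 2.33 (standard error 0.567, edgeR adjusted p = 0.0559), and the difference between the siRNAs was 1.89 (edgeR adjusted p = 0.0630). COL11A2, a chain of type XI collagen of cartilage, ranged from 0.622 to 3.18 CPM in the NC libraries, from 4.05 to 6.66 CPM with siFAT1-1 and from 0.914 to 2.89 CPM with siFAT1-2. Its log2 fold change was 1.58 with siFAT1-1 (standard error 0.468, edgeR adjusted p = 0.0957) and 1.39 between the siRNAs (edgeR adjusted p = 0.0309). Both unadjusted calls against NC were kept in all 8 fits that left out 1 library, for COL24A1 under the same limit of the filter. Between the siRNAs, the edgeR adjusted p of COL11A2 ran from 0.00669 to 0.0886 over 8 omissions and was under 0.05 in 2.

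COL1A1 was at 64.2 and 60.1 CPM in HN6 with NC, at 103 and 77.3 CPM with siFAT1-1 and at 146 and 57.1 CPM with siFAT1-2. For HN30 they were 11.1 and 20.1 CPM with NC, 46.4 and 37.5 CPM with siFAT1-1 and 34.5 and 29.0 CPM with siFAT1-2. All 4 KD libraries of HN30 lay above NC, but siFAT1-2 repeat 2 of HN6 lay below both NC libraries. Within HN30 it was called, with a log2 fold change of 1.24 (standard error 0.324, edgeR adjusted p = 0.407), and without HN30 NC repeat 1 the value was 0.89. Over both lines the log2 fold changes were 0.99 with siFAT1-1 and 0.92 with siFAT1-2, short of the fold the rule asks for. With the repeat as a block COL1A1 was called with siFAT1-1. Over the omissions of 1 library it was called in 4 of 8 fits with siFAT1-1 and in 2 of 8 with siFAT1-2. COL1A1 was also the most abundant of the 10 fibroblast markers in 10 of the 12 libraries and FAP in 2. The sums of these markers were 74.9 and 74.9 CPM in HN6 NC, 112 and 88.9 CPM with siFAT1-1, and 164 and 69.9 CPM with siFAT1-2. In HN30 they were 31.9 and 35.0 CPM, 70.9 and 63.2 CPM, and 76.2 and 49.3 CPM. PDGFRA, THY1, POSTN, COL3A1 and COL1A2 were each at 0 in 7 or 8 of the 12 libraries, DCN in 2 and LUM in 3. PDGFRB and FAP were detected in all 12, with up to 332 and 1304 counts. LUM, a proteoglycan of collagen fibrils, was at 5.81 and 1.18 CPM in HN6 with NC, at 1.65 and 1.66 CPM with siFAT1-1 and at 13.7 and 7.46 CPM with siFAT1-2, and had at most 2 counts in the HN30 libraries other than siFAT1-2, which were at 2.34 and 0.233 CPM. It was called as higher with siFAT1-2 (log2 fold change 2.80, standard error 1.04, edgeR adjusted p = 0.172), a call lost in 3 of 8 omissions (HN6 siFAT1-2 repeat 1 or either HN30 NC repeat). The part of fibroblast markers in the result was not tested.

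**Figure D3:**
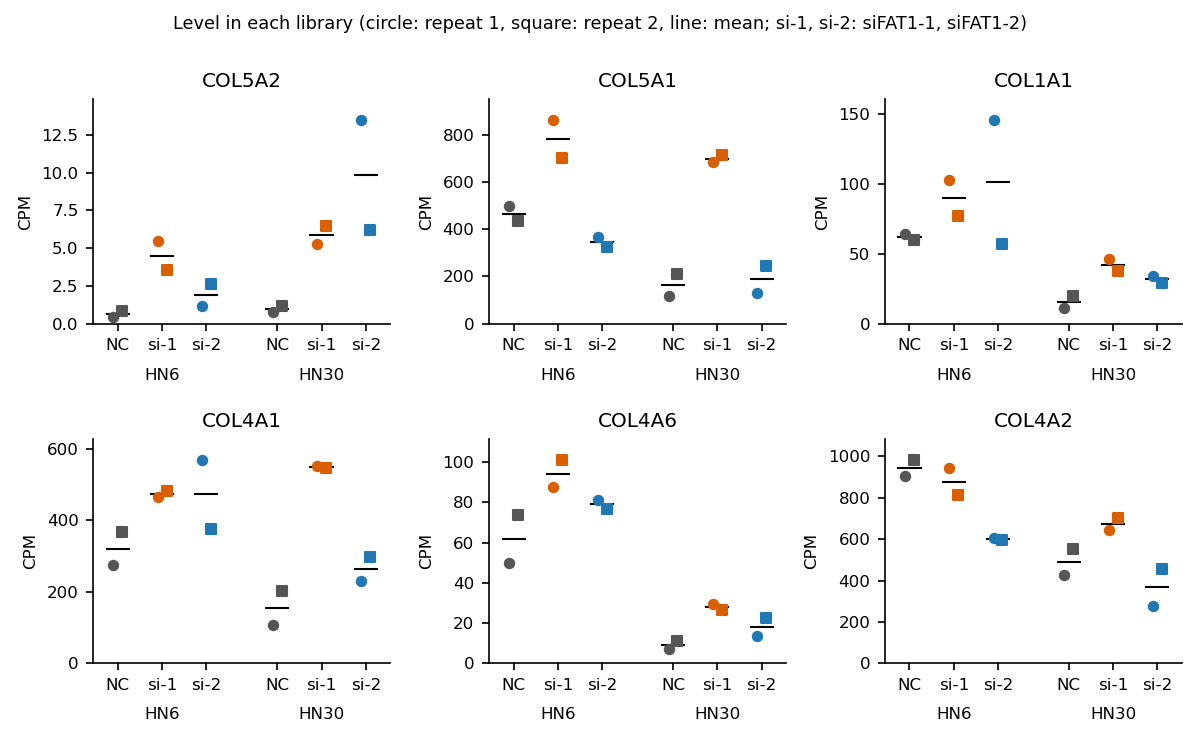
CPM in each of the 12 libraries for 6 collagen genes, each panel with its own axis from 0; points are libraries (circle for repeat 1, square for repeat 2) and lines are means of 2. COL5A2 is higher with both siRNAs in both lines, COL5A1 with siFAT1-1, and COL4A1 and COL4A6 lie above NC in all KD libraries while COL4A2 does not.

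The type IV genes lie in head-to-head pairs, in which the genes of a pair are read in opposite directions from neighboring start sites. COL4A1 and COL4A2, whose chains form the network common to all basement membranes, start 127 bases apart on chromosome 13, and COL4A5 and COL4A6 start 380 bases apart on chromosome X by RefSeq. COL4A3 and COL4A4 form the third pair, on chromosome 2. Because the start regions are shared and the ratio of COL4A1 to COL4A2 differed between KD and NC, the RefSeq windows (GRCh38.p14) from 250 bases before to 50 bases after the start are shown for COL4A2 (chr13:110307034-110307333, plus strand), COL4A5 (chrX:108439588-108439887, plus strand) and the outer start of COL4A6 (chrX:108439409-108439708, minus strand). Capitals mark matches, on either strand, to the GC box, GGGCGG, or to the CCAAT box, which is named by its letters.
COL4A2: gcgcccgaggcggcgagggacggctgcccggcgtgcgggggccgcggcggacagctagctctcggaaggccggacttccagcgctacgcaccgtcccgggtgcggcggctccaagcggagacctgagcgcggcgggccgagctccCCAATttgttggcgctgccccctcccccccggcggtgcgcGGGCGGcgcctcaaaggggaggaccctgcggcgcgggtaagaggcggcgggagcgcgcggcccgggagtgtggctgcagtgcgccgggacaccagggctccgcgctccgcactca
COL4A5: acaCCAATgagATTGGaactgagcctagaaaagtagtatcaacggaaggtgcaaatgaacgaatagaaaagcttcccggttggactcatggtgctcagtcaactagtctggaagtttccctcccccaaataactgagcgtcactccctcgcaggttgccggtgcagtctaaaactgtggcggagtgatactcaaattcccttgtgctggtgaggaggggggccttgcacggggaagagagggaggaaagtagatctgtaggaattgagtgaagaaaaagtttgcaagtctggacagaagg
COL4A6: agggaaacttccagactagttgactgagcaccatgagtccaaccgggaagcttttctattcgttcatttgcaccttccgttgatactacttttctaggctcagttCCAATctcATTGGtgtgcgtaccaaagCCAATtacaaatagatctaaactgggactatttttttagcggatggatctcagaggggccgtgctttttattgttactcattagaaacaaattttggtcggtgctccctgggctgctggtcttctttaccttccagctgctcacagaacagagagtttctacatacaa
The start of COL4A1 falls on base 124 of the COL4A2 window, read on the other strand, and that of COL4A2 on base 251, so the window holds both. It has 1 GC box and 1 CCAAT box, both between the starts. The COL4A5 and COL4A6 windows overlap and have 2 and 3 CCAAT boxes and no GC box, and none of the 3 windows holds TATAAA. Of the 35116 promoter windows of the same length, 45.0% held GGGCGG, 34.6% CCAAT and 11.5% TATAAA on either strand. The matches are a description of these letters and not sites of binding.

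COL4A1 was at 274 and 367 CPM in HN6 with NC, at 465 and 483 CPM with siFAT1-1 and at 570 and 375 CPM with siFAT1-2. The HN30 libraries had 106 and 201 CPM with NC, 551 and 548 CPM with siFAT1-1 and 229 and 296 CPM with siFAT1-2. The KD libraries of both lines lay above NC without overlap. COL4A2 was at 903 and 984 CPM in HN6 with NC, at 941 and 813 CPM with siFAT1-1 and at 606 and 598 CPM with siFAT1-2. In HN30 its levels were 427 and 553 CPM, 644 and 701 CPM, and 277 and 458 CPM. COL4A2 was thus above NC with siFAT1-1 in HN30 only, and its siFAT1-2 libraries were low in both lines, those of HN30 overlapping NC. For COL4A1 the log2 fold change was 1.22 with siFAT1-1 (standard error 0.301, edgeR adjusted p = 0.0582) and 0.73 with siFAT1-2 (standard error 0.233, edgeR adjusted p = 0.131), and for COL4A2 it was 0.19 (standard error 0.158) and -0.48 (standard error 0.184, edgeR adjusted p = 0.187). The call of COL4A1 with siFAT1-1 was lost without HN30 NC repeat 1, where the value was 0.92.

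The ratio of COL4A1 to COL4A2 per length was 0.399 and 0.490 in HN6 NC and 0.649, 0.780, 1.24 and 0.826 in the 4 HN6 KD libraries. In HN30 it was 0.327 and 0.478 with NC and 1.12, 1.03, 1.09 and 0.851 with KD. In both lines all KD libraries lay above both NC libraries. COL4A1 alone was already separated in this way, so the ratio in part restates its rise. On the log2 scale the ratio was higher with KD by 0.94 in HN6 and by 1.36 in HN30, and in an exact permutation test of the KD label within lines (two-sided, 225 arrangements) p was 0.00444, the smallest the design allows, or 0.0133 adjusted over the 3 pairs of chains tested. With the label permuted within line and repeat (81 arrangements), the exact permutation p was 0.0123, again the smallest possible, or 0.0370 adjusted. Over the 12 omissions of a single library this difference, averaged over the lines, was 1.014 to 1.29. Reads of an antisense gene could bear on COL4A2, since COL4A2-AS1 and COL4A2-AS2 overlap its exons and the use of strand in counting is not given in the sources used here, whereas no annotated gene overlaps the exons of COL4A1.

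COL4A6, whose chain joins COL4A5 chains in the basement membranes of squamous epithelium and smooth muscle, was at 49.9 and 73.8 CPM in HN6 with NC, at 87.3 and 101 CPM with siFAT1-1 and at 81.1 and 76.6 CPM with siFAT1-2. The HN30 values were 7.13 and 11.1 CPM with NC, 29.6 and 26.6 CPM with siFAT1-1 and 13.6 and 22.8 CPM with siFAT1-2. All KD libraries lay above NC, in HN6 by a small margin for siFAT1-2. The log2 fold change was 1.12 with siFAT1-1 (standard error 0.260, edgeR adjusted p = 0.0487) and 0.73 with siFAT1-2 (standard error 0.251, edgeR adjusted p = 0.150), and without HN30 NC repeat 1 the call for siFAT1-1 was lost at 0.90. That call was also lost with limma-voom. COL4A5 had log2 fold changes of 0.30 and 0.23 and was not called in any comparison. The ratio of COL4A6 to COL4A5 per length was 0.736 and 1.87 in HN6 NC and 1.17 to 1.90 in HN6 KD, which overlapped, and 0.180 and 0.217 in HN30 NC and 0.259 to 0.406 in HN30 KD, which did not. It was higher with KD by 0.46 on the log2 scale in HN6, by 0.85 in HN30 and by 0.65 over both (exact permutation p = 0.0267, adjusted over the 3 pairs 0.04), but permuting within line and repeat gave an exact p of 0.0370, or 0.0556 adjusted, which misses 0.05. The HN6 value rested on NC repeat 1, since NC repeat 2 lay above 3 of the 4 KD libraries. Without NC repeat 1 the difference was -0.21 in HN6 and 0.32 over both lines (exact permutation p = 0.293), and the threshold of 0.05 was missed in 9 of the 12 omissions.

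COL4A4 had at most 0.301 CPM in HN6. In HN30 it was at 2.69 and 3.33 CPM with NC, 5.20 and 5.76 CPM with siFAT1-1 and 1.82 and 5.59 CPM with siFAT1-2, where siFAT1-2 repeat 1 was lowest. It was called with siFAT1-1 (log2 fold change 1.15, standard error 0.469, edgeR adjusted p = 0.189). The call was lost in 6 of 8 fits that left out 1 library. Without HN6 NC repeat 1 the value was 0.87, and without HN6 siFAT1-1 repeat 1 (1.11) or repeat 2 (1.06), HN30 NC repeat 1 (1.12), or HN30 siFAT1-1 repeat 1 (1.31) or repeat 2 (1.22) the P threshold was missed.

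**Figure D4:**
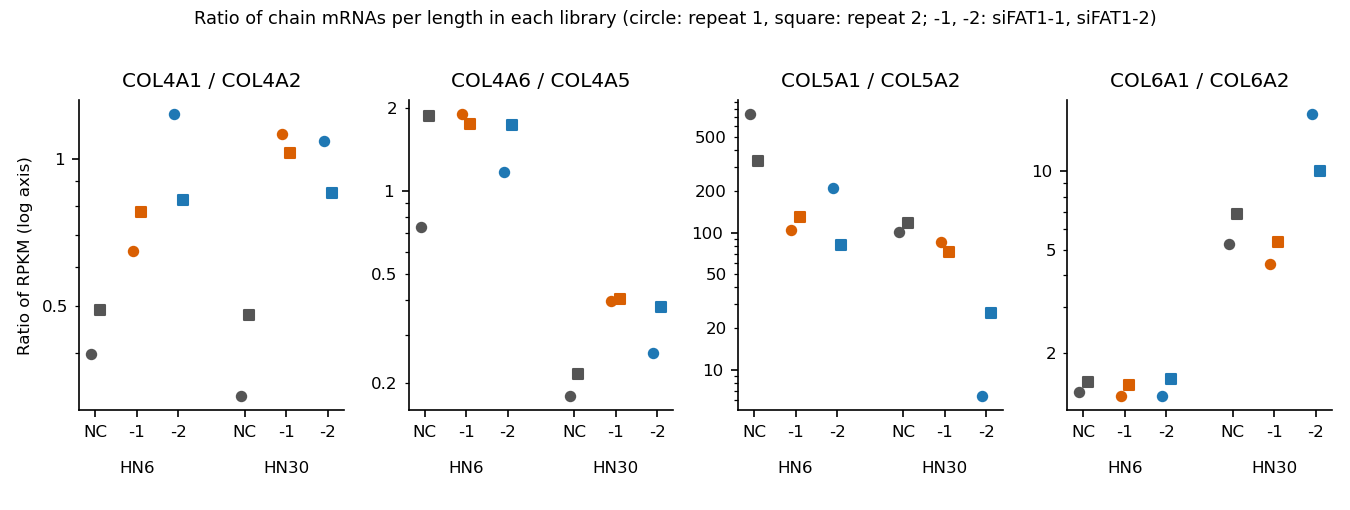
Ratio of RPKM (log axis, a different range in each panel) of chain mRNAs that are genomic or molecular partners, with 1 point per library. COL4A1 to COL4A2 is above NC in all KD libraries of both lines, COL5A1 to COL5A2 is below NC in all, and COL6A1 to COL6A2 is 1.36 to 1.59 in every HN6 library but 4.42 to 16.7 in HN30.

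The ratio of COL5A1 to COL5A2 per length was lower in the KD libraries of both lines. It was 737 and 336 in HN6 NC against 81.7 to 212 in HN6 KD, and 101 and 117 in HN30 NC against 6.37 to 84.9 in HN30 KD. The log2 difference over both lines was -1.89. As COL5A2 is the denominator and its rise was known when the collagens were selected, this restates that rise and is given without a test. COL6A1 to COL6A2 did not pass, with a difference of 0.19 (exact permutation p = 0.662). In that pair the siFAT1-2 libraries of HN30 had the highest ratios, 16.7 and 10.03, with 6.14 and 8.27 CPM of COL6A2.

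Among the other types, COL6A2 was at 1175 and 706 CPM in HN6 with NC, at 900 and 638 CPM with siFAT1-1 and at 798 and 400 CPM with siFAT1-2. In HN30 its levels were 46.1 and 16.7 CPM, 53.3 and 40.6 CPM, and 6.14 and 8.27 CPM. The siFAT1-2 libraries were lowest in HN30 and overlapped NC in HN6. It fell with siFAT1-2 by 1.34 on the log2 scale (standard error 0.477, edgeR adjusted p = 0.160). The call was lost without HN30 NC repeat 1 (-0.83), and the P threshold was missed without HN30 siFAT1-2 repeat 1 (-1.08) or HN30 siFAT1-2 repeat 2 (-1.22). With limma-voom the call was also lost. COL6A1 had a log2 fold change of -0.77 with siFAT1-2 (standard error 0.308, edgeR adjusted p = 0.198), and of 0.02 with siFAT1-1. Its siFAT1-2 libraries were at 1132 and 660 CPM in HN6, where NC was at 1727 and 1132 CPM, so that repeat 1 tied with NC repeat 2, and at 106 and 86.1 CPM in HN30, against 251 and 119 CPM with NC.

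COL13A1, a transmembrane collagen of cell adhesions, was at 5.98 and 6.59 CPM in HN6 with NC, at 6.77 and 6.15 CPM with siFAT1-1 and at 0.831 and 2.95 CPM with siFAT1-2. The levels in HN30 were 5.04 and 4.71 CPM with NC, 10.2 and 10.2 CPM with siFAT1-1 and 0.836 and 3.32 CPM with siFAT1-2. The siFAT1-2 libraries were the lowest in both lines. COL13A1 fell with siFAT1-2 by 1.43 on the log2 scale (standard error 0.515, edgeR adjusted p = 0.164), had a log2 fold change of 0.56 with siFAT1-1 (standard error 0.252) and differed between the siRNAs by 2.01 (standard error 0.484, edgeR adjusted p = 0.0190). Both calls were kept in all 8 fits that left out 1 library.

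COL8A1 was at 23.7 and 60.2 CPM in HN30 with NC, at 39.1 and 47.0 CPM with siFAT1-1 and at 44.9 and 100 CPM with siFAT1-2, and at most at 2.74 CPM in HN6. It was called with siFAT1-2 (log2 fold change 1.018, standard error 0.444, edgeR adjusted p = 0.232), with libraries that overlapped NC. The call was lost without HN6 NC repeat 1 (0.77), HN6 siFAT1-2 repeat 2 (0.67), HN30 NC repeat 1 (0.83) or HN30 siFAT1-2 repeat 2 (0.80). DESeq2 size factors, the DESeq2 Wald test and limma-voom also lost it. COL28A1, which carries von Willebrand factor A domains like the type VI chains, ranged from 0.546 to 5.59 CPM with NC, from 1.34 to 9.16 CPM with siFAT1-1 and from 0.720 to 5.18 CPM with siFAT1-2. These ranges join lines of unlike level, and within each line its siFAT1-1 libraries lay above the NC and the siFAT1-2 libraries. Means with siFAT1-1 and NC were 1.70 and 0.724 CPM in HN6, and 7.89 and 4.45 CPM in HN30. COL28A1 was called with siFAT1-1 (log2 fold change 1.018, standard error 0.309, edgeR adjusted p = 0.102). This call was lost without HN6 NC repeat 1 (0.85), HN6 siFAT1-1 repeat 2 (0.83), HN30 NC repeat 1 (0.90) or HN30 siFAT1-1 repeat 1 (0.96). It was also lost with limma-voom and without the filter on low counts.

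COL7A1, the anchoring fibril collagen, was at 780 and 498 CPM in HN6 with NC, at 723 and 664 CPM with siFAT1-1 and at 403 and 438 CPM with siFAT1-2. The levels in HN30 were 369 and 711 CPM with NC, 1358 and 1461 CPM with siFAT1-1 and 602 and 983 CPM with siFAT1-2. The siFAT1-1 libraries of HN30 were the highest of all 12. The log2 fold change between the siRNAs was 0.75 (standard error 0.163, edgeR adjusted p = 0.0132), under the fold the rule asks for. COL17A1 was at 167 and 278 CPM in HN6 with NC, at 334 and 342 CPM with siFAT1-1 and at 190 and 288 CPM with siFAT1-2, and at 32.6 and 21.7, 48.7 and 52.0, and 60.0 and 24.9 CPM in HN30. Its siFAT1-1 libraries lay above NC in both lines (log2 fold change 0.76, standard error 0.193, edgeR adjusted p = 0.0635). COL16A1, a collagen that associates with fibrils, ranged from 78.4 to 129 CPM with NC, from 83.4 to 168 CPM with siFAT1-1 and from 33.4 to 148 CPM with siFAT1-2, with a log2 fold change of KD against NC of 0.01 (standard error 0.256).

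Within single lines, 2 of 25 collagens rose in HN6, beside 2.19% of the 13626 genes tested, and 5 of 26 rose in HN30, beside 2.09% of the 13602 genes tested. In neither line did a collagen fall by the same rule, beside 0.888% of genes in HN6 and 1.91% in HN30. COL5A2 was called in both, with log2 fold changes of 2.32 in HN6 (standard error 0.706, edgeR adjusted p = 0.814) and 3.002 in HN30 (standard error 0.555, edgeR adjusted p = 0.359). Its rise was known when the collagens were selected. COL24A1 was the other collagen called in HN6, at 1.64, and it passed the filter there only through KD libraries. COL4A1 (1.40), COL4A6 (1.34), COL1A1 (1.24) and COL7A1 (1.023) were called in HN30. No gene of either line reached an adjusted p under 0.05 with edgeR, where 779 genes in HN6 (5.72%) and 1265 in HN30 (9.30%) had an unadjusted P under 0.05, and the DESeq2 Wald test gave 68 and 201 genes an adjusted p under 0.05. The P threshold was missed in HN6 by COL5A2 without HN6 NC repeat 1 (1.94), and by COL24A1 without HN6 NC repeat 1 (1.13), siFAT1-1 repeat 1 (1.52), siFAT1-1 repeat 2 (1.47) or siFAT1-2 repeat 2 (1.72). Without HN6 NC repeat 1, 4 other collagens were called, of which COL21A1 was higher and COL1A2, COL3A1 and COL6A3 were lower with KD, the last 3 against NC repeat 2 alone, which held most of their counts. In that fit 1599 of 14042 genes were called, against 420 of 13626 with all libraries, so the 4 of 31 collagens stand beside a share of like size. Without HN30 NC repeat 1, COL5A2 alone remained called in HN30 (log2 fold changes of 1.027 for COL4A1 and 1.07 for COL4A6, with P over 0.05, 0.89 for COL1A1 and 0.65 for COL7A1). COL7A1 was also lost without HN30 siFAT1-1 repeat 1 (0.92), siFAT1-1 repeat 2 (0.87) or siFAT1-2 repeat 2 (1.07, with P over 0.05). Without HN30 siFAT1-2 repeat 1, 9 of 26 collagens were called, beside 567 of 13500 genes, against 544 of 13602 genes with all libraries.

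In the test of the difference itself, the interaction of cell line and KD, 2 of 26 collagens were called, COL27A1 and COL7A1, beside 1.79% of the 13887 genes tested. COL7A1 had a log2 difference of HN30 over HN6 of 1.23 (standard error 0.560, edgeR adjusted p = 0.9999), and that for COL5A2 was 0.71 (standard error 0.859), with a range from 0.21 without HN6 NC repeat 2 to 1.098 without HN6 NC repeat 1. The call of COL7A1 was lost in 7 of the 12 fits that left out 1 library (log2 differences of 0.83 to 1.28), and no collagen was called without HN6 siFAT1-2 repeat 1. The number called was 1 without HN6 siFAT1-2 repeat 2, HN30 siFAT1-1 repeat 1 or 2 or HN30 siFAT1-2 repeat 2, and 4 without HN30 siFAT1-2 repeat 1. Fits without an NC library leave a single NC library in that line, and their counts are not given. With a KD library left out, 163 to 357 of all genes were called, against 249 of 13887 with all libraries. With all libraries no gene passed an adjusted p of 0.05 with edgeR, and 298 (2.15%) had an unadjusted P under 0.05.

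Genes that make, process and bind collagen were taken from lists for hydroxylation, glycosylation and folding in the endoplasmic reticulum (17 of 20 tested), propeptide processing (7 of 8), cross-linking (6 of 6), receptors (7 of 10), matrix partners (8 of 13) and collagenases (6 of 7). In KD against NC, 0 of the 17 modifying and folding genes, 0 of the 7 processing genes, 0 of the 6 cross-linking genes and 0 of the 8 matrix partners were called, and 1 of the 7 receptors and 2 of the 6 collagenases were. That makes 3 of the 51 genes tested, beside 3.07% of all genes. With an unadjusted P under 0.05 alone, 1 modifying gene, P4HA2, was higher and 3 were lower, and 1 cross-linking gene was lower, beside 14.5% of all genes. ITGA10, a collagen-binding integrin chain, was the receptor called (log2 fold change 1.56, standard error 0.576, edgeR adjusted p = 0.240). It was at 0.922 and 1.72 CPM in HN6 with NC and at 1.38 to 3.69 CPM with KD, and at 0.113 and 0.731 CPM in HN30 with NC and at 0.778 to 3.63 CPM with KD.

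Of the collagenases, MMP9, which cleaves type IV collagen and gelatin, and MMP1, which cleaves fibrillar collagen, were called as lower with KD. MMP9 was at 542 and 59.2 CPM in HN6 with NC, at 59.1 and 49.97 CPM with siFAT1-1 and at 15.8 and 25.8 CPM with siFAT1-2. In HN30 it was at 41.2 and 0.353 CPM with NC, at 0.411 and 0.555 CPM with siFAT1-1 and at 0 and 0.0582 CPM with siFAT1-2. NC repeat 1 was far above NC repeat 2 in both lines, and in HN30 the siFAT1-1 libraries lay above NC repeat 2. The log2 fold change was -4.70 (standard error 1.06, edgeR adjusted p = 0.0705), and -2.45 without HN30 NC repeat 1 (edgeR adjusted p = 0.421). MMP1 was at 30.8 CPM in HN30 NC repeat 1 and at 0.194 to 2.80 CPM in the other 11 libraries, with a log2 fold change of -2.18 (standard error 0.914, edgeR adjusted p = 0.300). Without HN30 NC repeat 1 the value was 0.09 (edgeR adjusted p = 0.985), and the P threshold was also missed without HN6 NC repeat 1, HN30 siFAT1-1 repeat 2 or either HN30 siFAT1-2 repeat.

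Between the siRNAs, 11 of the 51 genes tested from these lists were called, beside 12.7% of all genes, 8 of them higher and 3 lower with siFAT1-1. The 4 described here were named after their values were seen. PLOD1, a lysyl hydroxylase, was at 273 and 351 CPM in HN6 with NC, at 295 and 252 CPM with siFAT1-1 and at 54.9 and 118 CPM with siFAT1-2, and at 148 and 168, 103 and 111, and 69.6 and 84.8 CPM in HN30. It fell with siFAT1-2 by 1.39 on the log2 scale (standard error 0.270, edgeR adjusted p = 0.0591) and differed between the siRNAs by 1.04 (edgeR adjusted p = 0.0350), a call lost without HN6 siFAT1-1 repeat 1 (0.92), HN6 siFAT1-1 repeat 2 (0.995) or HN6 siFAT1-2 repeat 1 (0.75). ITGB1, the shared chain of the collagen-binding integrins, was at 348 and 356 CPM with siFAT1-1 and 1103 and 947 CPM with siFAT1-2 in HN6, where NC was at 1264 and 406 CPM. In HN30 it was at 385 and 344 CPM with siFAT1-1, 802 and 855 CPM with siFAT1-2 and 1110 and 873 CPM with NC. Its log2 fold change between the siRNAs was -1.39 (standard error 0.137, edgeR adjusted p = 0.00168). BMP1, which removes the C-terminal propeptides of fibrillar collagens, was higher with siFAT1-1 than with siFAT1-2 by 1.20 (standard error 0.233, edgeR adjusted p = 0.00906), and by 0.997 without HN30 siFAT1-2 repeat 1. MIA3, needed to export procollagen from the endoplasmic reticulum, was lower with siFAT1-1 than with siFAT1-2, with a log2 fold change of -1.27 (standard error 0.201, edgeR adjusted p = 0.00501).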

How the data were processed

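Per the labels and the study's methods, the authors transfected the cells with Lipofectamine RNAiMAX, extracted RNA with NucleoZol, selected poly(A) RNA, sequenced it as paired reads, removed poly-N, duplicate and low-quality reads, aligned to hg38 with HISAT2 and counted with featureCounts. The deposited values are raw counts per gene and library. The annotation and the use of strand in counting are not given in the sources used here. No column was left out.

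The 44 collagen genes and the gene lists were chosen with earlier results of these data known. Counts were normalized with TMM and tested with the quasi-likelihood test of edgeR 4.0.16 (R 4.3.3, limma 3.58.1) with cell line as a term, after filterByExpr (minimum count 10), with a prior count of 0.125. P-values were adjusted by the Benjamini-Hochberg method over all genes tested. A gene was called at an unadjusted P under 0.05 with an absolute log2 fold change above 1. The script was tested on simulated data. RPKM used GENCODE 44 exonic lengths, for which all 44 symbols matched, and promoter windows came from a table made from RefSeq, in which 32 of the 44 genes were matched. Exact permutation tests and figures used Python 3.11.15 and matplotlib 3.10.9. Depth was 26430049 to 47639010 counts per library.

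Collagens were named when called in KD against NC over both lines, with either siRNA or within either line, or when among the 8 most abundant per length, with up to 4 examples for calls between the lines or in the interaction. The listed pathway genes were named when called in KD against NC. COL4A5 was named as a partner of COL4A6, chain partners and markers were named for their roles, and any other gene was named after its values were seen. The design text of the series places the second repeat at a separate time, so repeats pair the libraries within a line, and the repeat was used as a block in an alternative. Correlations of their deviations from the group means were 0.07, 0.22 and 0.30 for the pairs of groups in HN6 and -0.02, 0.44 and 0.02 in HN30. Alternatives were DESeq2 1.42.0 size factors and Wald test, limma-voom, no filter, a prior count of 2, no cell line term, the NC libraries alone for the line comparison, the repeat block and leaving out each library. The tests of chain ratios were not among the comparisons set out beforehand. Leaving out libraries for the pathway genes, the chain ratios and the directions with siFAT1-1, and permuting the ratios within repeats, were added after the data were seen.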

Additional observations from a re-analysis of the deposited data

Results flagged for a closer look

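COL27A1, a fibrillar collagen of cartilage and other tissues, lay on opposite sides of NC in the lines, and the interaction of cell line and KD had an unadjusted P under 0.05. In HN6 it was at 99.4 and 87.8 CPM with NC, at 77.9 and 83.4 CPM with siFAT1-1 and at 38.1 and 57.3 CPM with siFAT1-2, so that all 4 KD libraries lay below NC. In HN30 it was at 31.6 and 33.9 CPM with NC, at 49.5 and 54.7 CPM with siFAT1-1 and at 48.5 and 43.5 CPM with siFAT1-2, so that all 4 lay above NC. The log2 fold change was -0.52 in HN6 (standard error 0.330) and 0.58 in HN30 (standard error 0.205). The difference was 1.13 (standard error 0.402, edgeR adjusted p = 0.9999) and failed the correction over all genes. It was 0.94 without HN6 siFAT1-2 repeat 1 and 1.08, with P over 0.05, without HN30 NC repeat 1.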

How the results depend on the processing

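The number of collagens called in KD against NC was 1 beside 426 of 13887 genes. It was 2 without the filter on low counts (554 of 17113 genes) or with the DESeq2 Wald test (525 of 13887). With siFAT1-1 it was 8 beside 798 of 13573 genes, and 7 beside 824 with limma-voom, which lost COL4A6 and COL28A1 and gained COL4A3. With siFAT1-2 it was 4 beside 1040 of 13458 genes, and 2 beside 1194 with limma-voom, which lost COL8A1 and COL6A2. It was 3 with DESeq2 size factors (1074 genes) and with the DESeq2 Wald test (1215), and both lost COL8A1. Without the filter it was 5 beside 1205 of 16849 genes. Within HN6 it was 2 (420 of 13626 genes), and 5 without the filter (517 of 16516) and 1 with limma-voom (438 of 13626). In the interaction it was 2 (249 of 13887 genes), and 1 with DESeq2 size factors (244), 4 without the filter (308 of 17113) and 1 with limma-voom (236). Leaving out 1 library at a time gave 1 to 4 collagens in KD against NC, 4 to 9 with siFAT1-1, 2 to 5 with siFAT1-2, 6 to 9 between the siRNAs and 12 to 13 between the lines. Over all genes these fits called 308 to 606 in KD against NC, 599 to 1114 with siFAT1-1 and 806 to 1414 with siFAT1-2. Between the siRNAs they called 1480 to 2081 genes, and between the lines 3988 to 4335. With a KD library left out, 1 to 2 collagens were called within HN6, beside 314 to 532 genes. Within HN30 these were 4 to 9 collagens beside 488 to 771 genes, and in the interaction 0 to 4 beside 163 to 357. Leaving out an NC library leaves that line a single NC library, and the counts over all genes fell outside these ranges in some of those fits. The log2 fold change of COL16A1 in KD against NC was -0.0214 with limma-voom, and without 1 library it ran from -0.12 to 0.14, while that of COL13A1 ran from -0.33 to 0.0481 and that of MMP1 from -2.73 to 0.0919. The cause of these changes was not tested.

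With the repeat as a block, the number of collagens called was 1 in KD against NC, 9 with siFAT1-1, 4 with siFAT1-2, 8 between the siRNAs, 2 in HN6, 5 in HN30, 2 in the interaction and 13 between the lines. In the same order 455 of 13887, 810 of 13573, 1264 of 13458, 1734 of 13533, 417 of 13626, 529 of 13602, 212 of 13887 and 4123 of 13440 genes were called. The edgeR adjusted p of COL5A2 in KD against NC was 0.0756 with this block, and the number of all genes with an adjusted p under 0.05 fell from 609 to 147 with siFAT1-1 and from 61 to 0 with siFAT1-2. Restricting the line comparison to NC libraries called 17 of 27 collagens, beside 3687 of 13672 genes, and 12 of the 17 were among the 13.

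Depth limits the low genes. COL24A1 was under the floor of 3 counts (0.0679 to 0.112 CPM) in 2 libraries, COL5A2 rested on 13 to 47 counts in NC, and 14 collagens never exceeded 15 counts. Repeats differed by more than counting error, by chi-square values, divided by their degrees of freedom, between 14.3 and 236. With 2 repeats a condition, calls within 1 line rest on 2 NC libraries.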

Other observations

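Of the 51 genes tested from the lists for making, processing and binding collagen, 28 were called between the lines, 17 higher and 11 lower in HN6, beside 30.4% of all genes. By list, 4 of the 17 hydroxylation, glycosylation and folding genes were higher in HN6 than in HN30 and 4 lower, and of the 8 matrix partners 5 were higher and 1 lower. Of the 7 propeptide processing genes 1 was higher and 3 lower, of the 6 cross-linking genes 2 were higher and 1 lower, of the 7 receptors 1 was higher and 1 lower, and of the 6 collagenases 4 were higher and 1 lower. FKBP10, a prolyl isomerase of the endoplasmic reticulum that acts on procollagen, ranged from 0.902 to 2.31 CPM in HN6 and from 180 to 220 CPM in HN30 (log2 fold change -7.12, standard error 0.215, edgeR adjusted p = 6.99e-10). SPARC, a collagen-binding matrix protein, ran the other way, from 170 to 747 CPM in HN6 and from 0 to 0.252 CPM in HN30. P3H2, a prolyl 3-hydroxylase with type IV collagen among its substrates, ranged from 27.5 to 65.0 CPM in HN6 and from 3.26 to 14.7 CPM in HN30 (log2 fold change 2.81, standard error 0.215, edgeR adjusted p = 6.68e-07). Among the cross-linking enzymes LOXL1 was higher in HN6, at 4.98 to 13.2 CPM against 1.12 to 2.66 CPM, and LOXL4 was lower, at 0.571 to 2.94 CPM against 5.74 to 24.5 CPM. None of these ranges overlapped. The 5 genes were named after their values were seen.

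In HN6, P3H2 and SPARC were lowest in the siFAT1-2 libraries. Between the siRNAs, P3H2 was higher with siFAT1-1 by 1.45 on the log2 scale (standard error 0.267, edgeR adjusted p = 0.00763), and its siFAT1-1 libraries lay above its siFAT1-2 libraries in both lines.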
